A study of Mus musculus with 18 samples.

Results

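The genes described here are 8 transcription factors listed together under kidney tubule identity, *Hnf4a*, *Ppara*, *Emx1*, *Pax8*, *Pax2*, *Lhx1*, *Esrrb* and *Esrrg*. They were taken as a named list, by gene symbol, and are 8 of the 45706 genes counted. All 8 had reads in each of the 18 kidneys and passed the filter on low counts in every comparison. RNA from whole kidneys was sequenced 12 h after bilateral ischemia of 22.5 min, in mice from which either *Cxcl12* or *Myc* had been removed in tubule cells, to ask how the loss of each gene shapes early recovery. The groups were 5 *Cxcl12* KO and 3 *Cxcl12* control kidneys, and 5 *Myc* KO and 5 *Myc* control kidneys.

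All mice were C57BL/6 males of 10 to 12 weeks, with littermates as controls. KO mice carried *Cxcl12* fl/fl or *Myc* fl/fl together with Pax8rtTA and TetOCre, and control mice carried the same floxed alleles and Pax8rtTA without TetOCre. Every mouse, control or KO, received doxycycline for 14 days and was then kept without it for 1 week before the injury, and every kidney measured was injured. Because the rtTA transgene follows the *Pax8* promoter, excision is limited to the tubule cells that use it, while the reads come from all cells of the kidney. No uninjured kidney is among the 18, so the levels below cannot be set against a resting state. Each library was labelled as a separate replicate of its group, and p-values weigh a difference between groups against the variation between kidneys.

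Transcription factors of this kind switch on the genes of a nephron segment and keep them on. PAX2, PAX8 and LHX1 build the nephric lineage in the embryo and persist in mature tubule cells, and HNF4A drives the maturation of the proximal tubule. The nuclear receptors PPARA, ESRRB and ESRRG govern fatty acid oxidation and mitochondrial genes, on which the transporting tubule depends, and EMX1 is a homeobox protein best known from the forebrain. Dedifferentiation of tubule cells after ischemia, with loss of such programs, is a familiar feature of acute kidney injury.

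On GRCm38, *Hnf4a* (ENSMUSG00000017950) lies on chromosome 2 from 163506808 to 163572910, and *Pax8* (ENSMUSG00000026976) on the same chromosome from 24420560 to 24475599, on the minus strand. *Ppara* (ENSMUSG00000022383) is on chromosome 15, *Emx1* (ENSMUSG00000033726) on 6, *Pax2* (ENSMUSG00000004231) on 19, *Lhx1* (ENSMUSG00000018698) on 11, *Esrrb* (ENSMUSG00000021255) on 12 and *Esrrg* (ENSMUSG00000026610) on 1. All are protein coding. Reads were counted here without strand, and only *Pax8* shares exon sequence with a counted gene, 6.06% of its exon bases with Gm13415 on the opposite strand. Reads over exons of both genes were set apart as ambiguous and given to neither, so that *Pax8* may lack reads from these bases.

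The start regions of *Pax8*, which directs the excision, and of *Hnf4a*, the only one of the 8 genes with an HNF1 motif there, are shown. RefSeq on GRCm38.p6 gives 15 start sites for the 8 genes, and the 250 bases before each were searched on both strands for 4 motifs. *Pax8* is shown at chr2:24475600-24475849 on the minus strand, with capitals for the letters CCGCCC, the reverse of the GC box GGGCGG. *Hnf4a* is shown at its downstream start, chr2:163546905-163547154 on the plus strand, with capitals for ATTAAC, the reverse of GTTAAT, a part of the site that HNF1 proteins bind.
Pax8: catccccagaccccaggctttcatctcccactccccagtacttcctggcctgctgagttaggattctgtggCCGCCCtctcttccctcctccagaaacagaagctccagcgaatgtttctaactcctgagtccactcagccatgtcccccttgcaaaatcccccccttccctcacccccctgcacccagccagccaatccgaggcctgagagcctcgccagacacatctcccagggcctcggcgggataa
Hnf4a: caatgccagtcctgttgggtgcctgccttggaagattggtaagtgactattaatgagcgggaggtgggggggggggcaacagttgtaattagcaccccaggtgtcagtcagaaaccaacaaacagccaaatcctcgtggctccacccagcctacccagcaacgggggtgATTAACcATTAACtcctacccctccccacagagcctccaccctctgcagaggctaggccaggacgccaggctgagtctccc
The *Hnf4a* window holds 2 copies of ATTAAC separated by 1 base, and its last stretch overlaps 38 bases of an annotated *Hnf4a* exon. GTTAAT occurred in 6.43% of the 32851 windows of the same length over all genes and in 1 of the 15 windows of these genes. The E-box CACGTG, which MYC with its partner MAX can bind, occurred in 6.02% of all windows and in 0 of the 15, and AAGGTCA, which estrogen-related receptors can bind, in 4.08% and in 0. GGGCGG was found in 32.7% of all windows and in 8 of the 15, at starts of *Emx1*, *Esrrg*, *Hnf4a*, *Pax2*, *Pax8* and *Ppara*. A match of letters is a description of these windows and says nothing about binding in these kidneys.

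Levels are given in CPM, the counts scaled to the size of each library with TMM factors (trimmed mean of M values). Where genes are compared with each other they are given in TPM, which also divides by exon length. *Hnf4a* and *Pax8* were the most abundant of the 8, with 224 ± 66.7 and 205 ± 45.4 TPM (SD, n = 18), ranks 502 and 566 of 45143 genes, and the gap between them was smaller than either SD. *Ppara* followed with a mean of 65.8 TPM, and its highest kidney (105 TPM) lay below the lowest of *Pax8* (139 TPM) and of *Hnf4a* (131 TPM). *Esrrg* had 26.6 ± 5.24 TPM, *Pax2* 18.3 ± 2.67 TPM and *Emx1* 15.6 ± 5.61 TPM, with overlapping ranges. *Lhx1*, with 9.60 ± 1.57 TPM, and *Esrrb*, with 8.74 ± 1.89 TPM, were the least abundant and did not differ beyond their spread. *Emx1*, the member with the fewest reads, still had at least 143 reads in every kidney. In whole tissue, fewer cells of a type and less RNA per cell cannot be told apart, and this holds for every level below.

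The reads assigned to genes numbered 12918220 to 29749500 per kidney. In 6 kidneys fewer than 5% of the reads were unmapped, and these 6 also had the most reads, at least 32532582 against at most 26415146 in the others. They are called the deeper libraries here, and they are *Cxcl12* KO kidneys 1 and 2, *Myc* KO kidneys 3 and 5 and *Myc* control kidneys 1 and 3, with no *Cxcl12* control among them. The study's methods mention a correction for batches without naming them, and whether the deeper libraries are such a batch is not given in the sources used here. The knocked-out genes were low in their own cohorts. *Cxcl12* averaged 32.2 ± 6.07 CPM in its 5 KO kidneys and 53.4 ± 7.92 CPM in its 3 controls (SD), which did not overlap, at an edgeR adjusted p of 0.094. *Myc* averaged 31.0 ± 3.94 CPM where it was deleted and 94.8 ± 14.5 CPM in its controls (SD, n = 5 each, edgeR adjusted p = 8.8e-05).

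**Figure D1:**
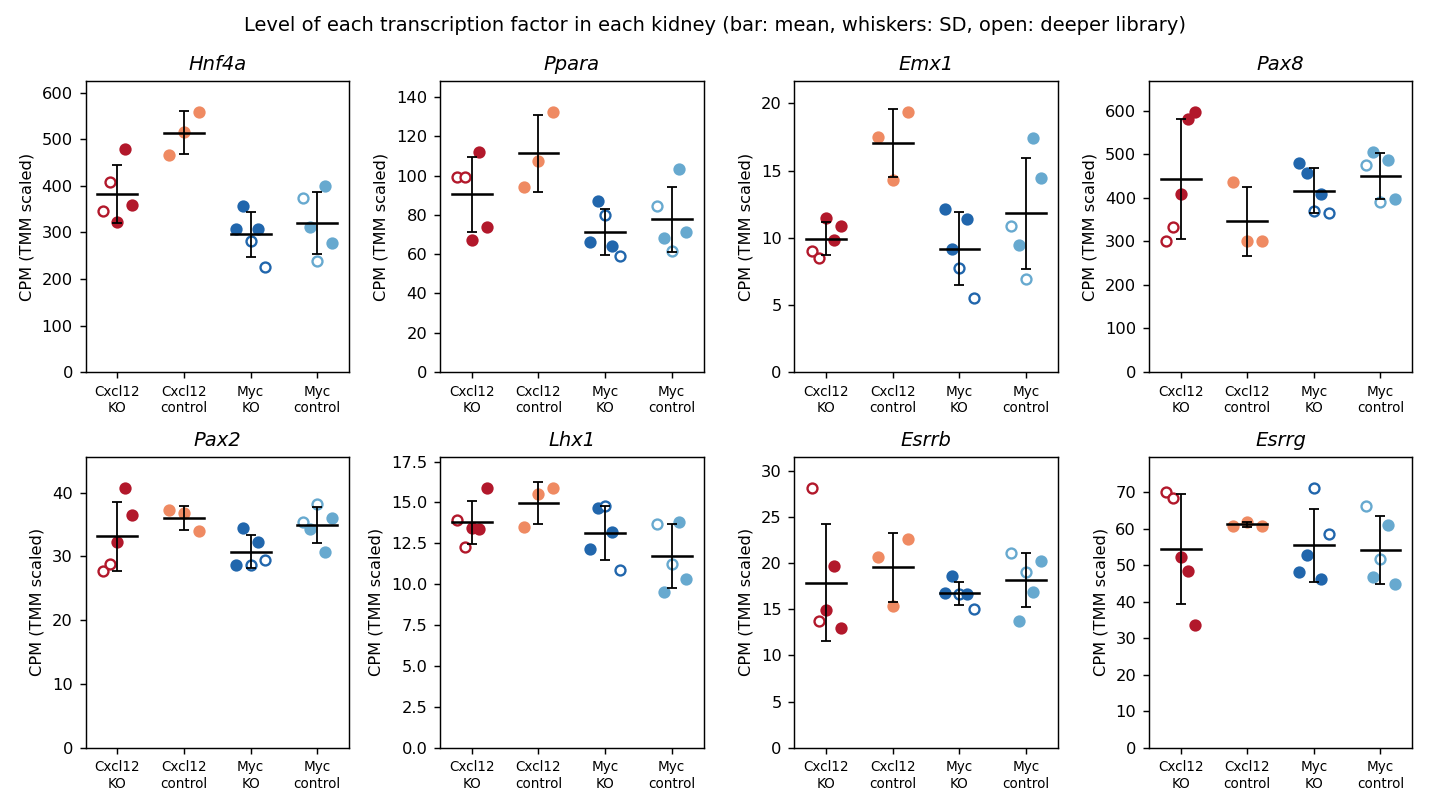
Level of the 8 transcription factors in each of the 18 kidneys, in CPM after TMM scaling, with the group mean as a bar, the SD as whiskers and open circles for the 6 deeper libraries. In the *Emx1* panel all 5 *Cxcl12* KO kidneys (8.52 to 11.5 CPM) lie below the 3 *Cxcl12* controls (14.3 to 19.4 CPM), and in the *Hnf4a* panel the 3 *Cxcl12* controls (466 to 559 CPM) lie above every *Myc* control (238 to 400 CPM).

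In the *Cxcl12* cohort, the question is what the loss of this chemokine in tubule cells does to the regulators of the tubule. *Emx1* and *Hnf4a* were the members that differed most between KO and control kidneys, both lower in the KO, but neither passed edgeR's quasi-likelihood test at an adjusted p of 0.05. The test called 0 of the 8 members, against 0% of 15154 genes. At an unadjusted p under 0.05 it gave *Emx1* and *Hnf4a*, both lower, against 6.63% of genes lower and 13% in either direction. DESeq2, another count test, called 1 of the 8, *Emx1*, against 2.33% of genes. Of the 8 members 7 had a log2 fold change below 0, where 49.8% of genes did, and their median was -0.15 against 0.00083 over all genes tested.

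*Hnf4a*, the nuclear receptor of the proximal tubule, had 346, 409, 323, 479 and 358 CPM in *Cxcl12* KO kidneys 1 to 5 and 466, 517 and 559 CPM in control kidneys 1 to 3. All 5 KO kidneys lay below the control mean, and only KO kidney 4 reached into the control range. The fitted log2 fold change was -0.43 (SE 0.13, edgeR adjusted p = 0.22), a level 0.743 times that of controls, and the two-sided exact permutation p was 0.054. Without the deeper libraries the log2 fold change was -0.42 (edgeR adjusted p = 0.29). DESeq2 gave *Hnf4a* an adjusted p of 0.060.

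*Emx1* had 9.01, 8.52, 11.5, 9.81 and 10.8 CPM in the KO kidneys and 17.5, 14.3 and 19.4 CPM in the controls. The groups did not overlap, which was so with the KO lower for 4.72% of genes. Its log2 fold change was -0.79 (SE 0.14, edgeR adjusted p = 0.078), a level 0.579 times that of controls, and its p stood 27th of 15154 genes. The two-sided exact permutation p was 0.018, the smallest that 5 kidneys against 3 allow. DESeq2 gave a log2 fold change of -0.79 with an adjusted p of 0.00035, and edgeR on every gene with a count an adjusted p of 0.011, where 0.765% of genes were called. Over the 18 alternative settings the log2 fold change stayed between -0.90 and -0.68, the adjusted p ranged from 0.00035 to 0.27, and 2 settings passed. Without the deeper libraries, which are the lowest KO kidneys for *Emx1*, it was -0.68 (edgeR adjusted p = 0.10).

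The high side of this contrast was the control group. *Emx1* averaged 17.1 ± 2.55 CPM (SD, n = 3) in *Cxcl12* controls against 9.94 ± 1.24 (n = 5) in *Cxcl12* KO, 9.20 ± 2.72 (n = 5) in *Myc* KO and 11.8 ± 4.14 (n = 5) in *Myc* controls, so the *Cxcl12* KO kidneys lay within the range of both *Myc* groups. The gap between the *Cxcl12* and the *Myc* controls exceeded either SD, and their ranges overlapped. For *Hnf4a* too the *Cxcl12* controls were the highest group, with 514 ± 46.1 CPM in *Cxcl12* controls, 383 ± 62.3 in *Cxcl12* KO, 320 ± 66.6 in *Myc* controls and 296 ± 47.7 in *Myc* KO.

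**Figure D2:**
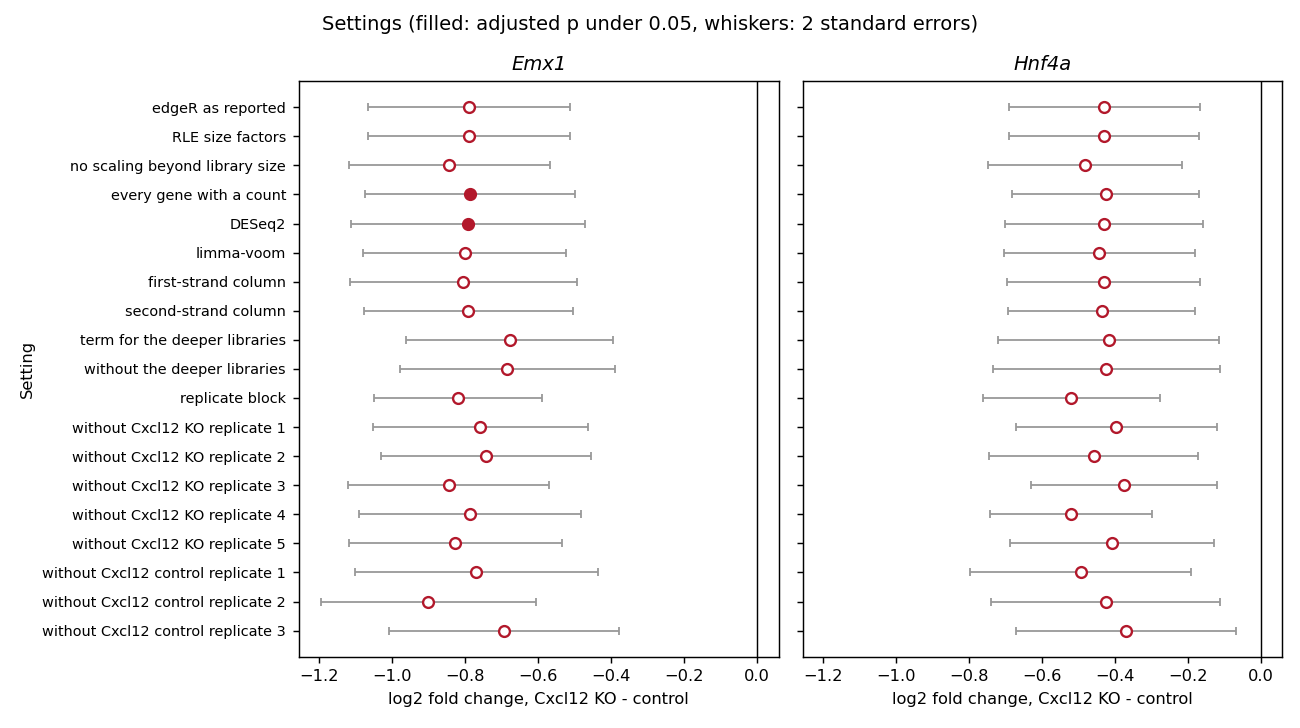
Log2 fold change of *Emx1* and *Hnf4a* between *Cxcl12* KO and control kidneys under the reported fit and 18 other settings, with whiskers of 2 standard errors and filled points where the adjusted p was under 0.05. All points lie left of 0, from -0.90 to -0.68 for *Emx1* and from -0.52 to -0.37 for *Hnf4a*, and the filled points are *Emx1* with DESeq2 and with every gene that had a count.

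*Ppara*, the receptor that turns on fatty acid oxidation, had 99.0, 99.4, 67.4, 112 and 73.8 CPM in *Cxcl12* KO kidneys and 93.9, 108 and 132 CPM in controls. The groups overlapped, with KO kidneys 3 and 5 below all controls and kidney 4 above 2 of them. Its log2 fold change was -0.30 (SE 0.17, edgeR adjusted p = 0.47), and -0.16 without control kidney 3. *Esrrg*, a relative of the estrogen receptors tied to mitochondrial genes, had 70.1, 68.4, 52.3, 48.3 and 33.8 CPM in KO kidneys and 60.9, 62.0 and 60.8 CPM in controls. The controls were almost equal, and the KO kidneys lay on both sides of them, the 2 deeper libraries above and the other 3 below. The log2 fold change of *Esrrg* was -0.17 (SE 0.20, edgeR adjusted p = 0.75) over all kidneys and -0.46 (edgeR adjusted p = 0.24) without the deeper libraries. *Esrrb* had 28.1, 13.7, 14.9, 19.7 and 12.9 CPM in KO kidneys and 20.6, 15.4 and 22.6 CPM in controls, with KO kidney 1 highest of all 8. Its log2 fold change was -0.12 (SE 0.24, edgeR adjusted p = 0.86), and -0.36 without KO kidney 1.

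Of the lineage factors, *Pax8* was the only member with a log2 fold change above 0. It had 300, 333, 408, 580 and 596 CPM in *Cxcl12* KO kidneys and 437, 301 and 300 CPM in controls. KO kidneys 4 and 5 exceeded every control, while the deeper KO kidneys 1 and 2 lay close to the lower 2 controls. The log2 fold change was 0.35 (SE 0.24, edgeR adjusted p = 0.55), and 0.59 without the deeper libraries (edgeR adjusted p = 0.24). *Pax2* had 27.7, 28.8, 32.3, 40.8 and 36.4 CPM in KO kidneys and 37.3, 36.8 and 33.9 CPM in controls, and its deeper KO kidneys were again the lowest. Its log2 fold change of -0.13 (SE 0.13, edgeR adjusted p = 0.70) became 0.01 without them. *Lhx1* had 13.9, 12.3, 13.4, 13.4 and 15.9 CPM in KO kidneys and 13.5, 15.5 and 15.9 CPM in controls, which overlapped almost fully (log2 fold change -0.12, SE 0.11, edgeR adjusted p = 0.67). The interval of 2 SE around the value for *Lhx1* ran from -0.35 to 0.11.

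Other regulators of the same tissue also lay mostly below 0 in the *Cxcl12* cohort, though none passed the edgeR test. In a list of 12 further proximal tubule and nuclear receptor regulators, 11 were lower and 1 higher, with a median log2 fold change of -0.23. The smallest p-values belonged to *Esrra* (-0.46, edgeR adjusted p = 0.15), the third estrogen-related receptor, and to *Ppargc1a* (-0.34, edgeR adjusted p = 0.33), a coactivator of mitochondrial genes. Of 19 distal nephron and collecting duct factors 14 were lower, with a median of -0.12, and *Nr3c2*, the mineralocorticoid receptor, had -0.33 (edgeR adjusted p = 0.37) and *Foxi1*, the factor of intercalated cells, 0.25 (edgeR adjusted p = 0.47). Of 10 progenitor and repair factors 7 were measured well enough, 3 higher and 4 lower, with the smallest p for *Sox4* at 0.65 (edgeR adjusted p = 0.20) and *Sox9*, which marks repairing tubule cells, at 0.44 (edgeR adjusted p = 0.45).

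Genes that these receptors are known to drive were described in the same way. Of 32 PPARA target genes 24 were lower and 8 higher in the *Cxcl12* KO, with a median log2 fold change of -0.19. *Fabp1*, a fatty acid carrier, had -2.44 (edgeR adjusted p = 0.13) at a low level, 0.341 CPM in KO kidneys, while *Angptl4*, an inhibitor of lipoprotein lipase, had 0.39 (edgeR adjusted p = 0.32). Of 14 ERR target genes 12 were lower, with a median of -0.13. edgeR called 0 genes of these 5 lists, in which 2, 1, 1, 7 and 1 genes had an unadjusted p under 0.05, where 13% of all genes did. Of the 7 PPARA targets among them 3 were higher and 4 lower. These 5 lists and the 9 lists of cell markers, 193 genes in all, together held 0 called genes with edgeR and 18 with DESeq2. Among all genes tested edgeR called 0% and DESeq2 2.33%.

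Markers of cell types also leaned one way between the groups, although none passed the edgeR test. Of 32 proximal tubule genes 30 were lower in *Cxcl12* KO kidneys (median log2 fold change -0.29), and their summed level ran from 17628 to 21708 CPM in KO against 20871 to 26052 CPM in controls. Tubular injury markers were higher for 9 of 10, with sums from 15024 to 23106 CPM in KO and from 12190 to 13704 CPM in controls. Leukocyte markers had a median of 0.57 over the 8 of 10 that were measured, 6 higher and 2 lower, and summed to 78.8 to 183 CPM in KO and 72.8 to 75.1 CPM in controls, with none at 0 in all kidneys. Loop of Henle markers were lower for 9 of 9 (sums 2439 to 4579 against 3511 to 4368 CPM), distal convoluted and connecting tubule markers for 7 of 9, collecting duct markers for 8 of 10 and stromal markers for 7 of 8, while endothelial markers were higher for 6 of 9 and podocyte markers for 5 of 8. The part of these shifts in the levels of *Emx1* and *Hnf4a* was not tested.

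In the *Myc* cohort, which asks the same of a transcription factor of growth and metabolism, KO and control kidneys overlapped for all 8 members, where 5.97% of genes did not overlap. edgeR called 0 of the 8, against 1.65% of 14936 genes, and at an unadjusted p under 0.05 it gave *Pax2* alone, lower, against 11.2% of genes lower and 21.9% in either direction. DESeq2 also called 0 of the 8, where it called 7.57% of genes. The log2 fold change lay below 0 for 6 of 8 members and for 50.1% of all genes, and the median of the members was -0.12.

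*Pax2* had 28.6, 34.5, 28.7, 32.3 and 29.5 CPM in *Myc* KO kidneys 1 to 5 and 35.3, 34.4, 38.3, 30.7 and 36.0 CPM in *Myc* control kidneys 1 to 5. All 5 KO kidneys lay below the control mean, and control kidneys 2 and 4 lay within the KO range. Its log2 fold change was -0.19 (SE 0.082, edgeR adjusted p = 0.22), with a two-sided exact permutation p of 0.056, and it was -0.07 without the deeper libraries. *Pax8* had 480, 457, 369, 409 and 365 CPM in KO and 474, 504, 389, 486 and 397 CPM in control kidneys, and *Lhx1* had 12.2, 14.7, 14.8, 13.2 and 10.9 against 13.7, 9.49, 11.2, 13.8 and 10.3 CPM. Neither separated the groups, with log2 fold changes of -0.11 (SE 0.11, edgeR adjusted p = 0.57) for *Pax8* and 0.17 (SE 0.13, edgeR adjusted p = 0.48) for *Lhx1*.

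*Emx1* had 12.2, 9.17, 7.72, 11.4 and 5.51 CPM in *Myc* KO and 10.9, 9.43, 6.93, 17.4 and 14.5 CPM in *Myc* control kidneys, a wide spread in both. Control kidneys 4 and 5 were the highest. The deeper libraries averaged less *Emx1* than the others in each group that holds both, 6.61 against 10.9 CPM in *Myc* KO, 8.91 against 13.8 CPM in *Myc* control and 8.76 against 10.7 CPM in *Cxcl12* KO kidneys, and their part in the spread was not tested. The log2 fold change between *Myc* KO and control was -0.37 (SE 0.26, edgeR adjusted p = 0.42), and -0.19 without control kidney 4. *Hnf4a* had 307, 357, 283, 307 and 225 CPM in KO and 374, 311, 238, 400 and 278 CPM in control kidneys (log2 fold change -0.11, SE 0.15, edgeR adjusted p = 0.69). *Ppara* had 66.1, 87.2, 80.0, 64.2 and 59.0 CPM in KO and 84.6, 68.1, 61.6, 103 and 71.4 CPM in control kidneys (log2 fold change -0.12, SE 0.15, edgeR adjusted p = 0.65). For both, the lowest KO kidney was number 5 and the highest control number 4, without which the log2 fold changes were -0.02 for *Hnf4a* and -0.0013 for *Ppara*. *Esrrb* ran from 15.0 to 18.6 CPM in KO and from 13.7 to 21.1 CPM in control kidneys, and *Esrrg* from 46.4 to 71.3 and from 44.9 to 66.3 CPM. Their log2 fold changes were -0.12 (edgeR adjusted p = 0.56) and 0.04 (edgeR adjusted p = 0.89), and the one of *Esrrg* turned to -0.04 without the deeper libraries.

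Of the other lists, PPARA targets were lower for 27 of 31 in the *Myc* cohort, with a median log2 fold change of -0.16. *Pex11a*, a peroxisome protein, had -0.71 (edgeR adjusted p = 0.065) and *Slc25a20*, the mitochondrial carnitine carrier, -0.28 (edgeR adjusted p = 0.082). ERR targets were lower for 11 of 14, with a median of -0.07, and *Idh3a*, a subunit of isocitrate dehydrogenase, had -0.32 (edgeR adjusted p = 0.061) and *Perm1*, a muscle-enriched regulator of mitochondrial genes, 0.49 (edgeR adjusted p = 0.14). The 12 further regulators split evenly, 6 higher and 6 lower, with *Maf* at 0.32 (edgeR adjusted p = 0.15) and *Hnf4g*, a relative of *Hnf4a*, at -0.45 (edgeR adjusted p = 0.30). Of 19 distal factors 15 were higher, with *Hoxb7* lower at -0.29 (edgeR adjusted p = 0.081) and *Sim1* at 0.38 (edgeR adjusted p = 0.21), and 5 of 7 measured progenitor and repair factors were higher, with *Sox4* at 0.50 (edgeR adjusted p = 0.13) and *Sox11* at 0.56 (edgeR adjusted p = 0.17). edgeR called 0 genes in any list, with 8, 2, 1, 5 and 2 genes of these 5 at an unadjusted p under 0.05, where 21.9% of all genes were. DESeq2 called 19 over these and the marker lists. The lists hold 193 genes in all, and DESeq2 called 7.57% of all genes tested. Proximal tubule genes were higher for 19 of 32, with sums from 15040 to 22313 CPM in KO and from 15490 to 24696 CPM in control kidneys, and injury markers for 7 of 10. The injury marker with the smallest p, *Havcr1*, was lower, at -1.32 (edgeR adjusted p = 0.12), with means of 203 CPM in KO and 506 CPM in control kidneys. Podocyte markers were higher for 8 of 8, endothelial markers for 7 of 9, leukocyte markers for 6 of 8, stromal markers for 5 of 8, collecting duct markers for 7 of 10, distal convoluted and connecting tubule markers for 6 of 9 and loop of Henle markers for 4 of 8.

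Whether a member responded differently to the loss of *Cxcl12* and of *Myc* was tested directly over all 18 kidneys. edgeR called 0 of the 8 members and 0.0692% of 15903 genes, no member had an unadjusted p under 0.05, where 11.4% of genes did, and DESeq2 called 0 of the 8 and 2.04% of genes. The largest difference was that of *Pax8*, with log2 effects of -0.11 upon loss of *Myc* and 0.35 upon loss of *Cxcl12*, a difference of -0.47 (SE 0.26, edgeR adjusted p = 0.54). For *Emx1* the *Myc* effect exceeded the *Cxcl12* effect by 0.42 (SE 0.34, edgeR adjusted p = 0.70), so the lower *Emx1* level in the *Cxcl12* KO is not shown to be particular to that cohort. *Hnf4a* differed by 0.31 (SE 0.22, edgeR adjusted p = 0.65), *Lhx1* by 0.28 (SE 0.18, edgeR adjusted p = 0.61), *Esrrg* by 0.20, *Ppara* by 0.17, *Pax2* by -0.07 and *Esrrb* by -0.00. The difference was above 0 for 5 members and below 0 for 3, where 51% of genes lay below 0. The lists of other genes held 0 genes called by edgeR and 5 by DESeq2.

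**Figure D3:**
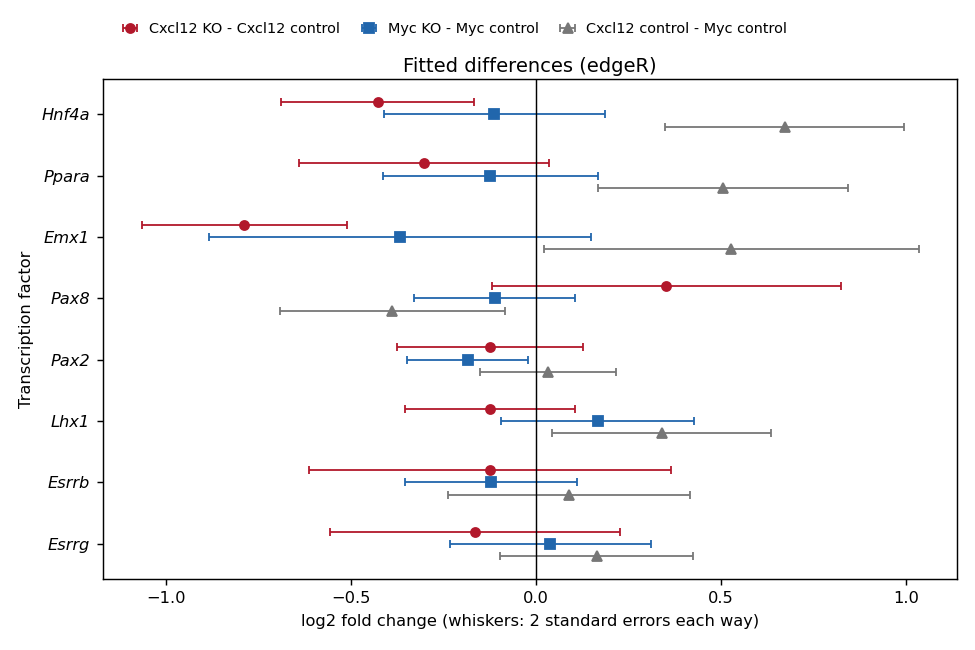
Fitted log2 fold changes of the 8 transcription factors for *Cxcl12* KO minus control (circles), *Myc* KO minus control (squares) and *Cxcl12* control minus *Myc* control (triangles), with whiskers of 2 standard errors each way. *Emx1* at -0.79 and *Hnf4a* at -0.43 lie farthest below 0 among the KO effects, and the triangles of *Hnf4a* at 0.67, *Emx1* at 0.53 and *Ppara* at 0.51 lie farthest above it.

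The controls of the cohorts were compared after their levels had been seen, and they share their kidneys with the KO comparisons above. *Hnf4a* was higher in every *Cxcl12* control, with the lowest at 466 CPM, than in any *Myc* control, with the highest at 400 CPM, and groups did not overlap in this direction for 6% of genes. The log2 difference was 0.67 (SE 0.16, edgeR adjusted p = 0.075, two-sided exact permutation p = 0.036), and DESeq2 gave an adjusted p of 0.0034. edgeR called 0 of the 8 members against 1.32% of 15276 genes, with 3 members higher and 1 lower at an unadjusted p under 0.05, where 7.27% of genes were higher and 9.19% lower, 16.5% in all. DESeq2 called *Hnf4a* alone against 5.58% of genes, and so did edgeR on every gene with a count, against 1.65%. Beside *Hnf4a* those members were *Ppara* (0.51, edgeR adjusted p = 0.17), *Pax8* (-0.39, edgeR adjusted p = 0.23) and *Lhx1* (0.34, edgeR adjusted p = 0.28). Without *Myc* control kidney 4 the log2 differences were 0.77 for *Hnf4a* and 0.63 for *Ppara*, with edgeR adjusted p-values of 0.029 and 0.042. Calls among all genes rose too in that fit, to 523 of 15211 from 202. Without *Myc* control kidney 1 *Hnf4a* had 0.75 (edgeR adjusted p = 0.044), and edgeR called 496 of 15193 genes. Over all 8 fits that left out a single kidney, *Hnf4a* ran from 0.58 to 0.77 (edgeR adjusted p from 0.029 to 0.24). *Ppara* ran from 0.38 to 0.63 in the same fits (edgeR adjusted p from 0.042 to 0.46). The log2 difference lay below 0 for 1 of 8 members and for 50.9% of genes. *Emx1* differed by 0.53 (SE 0.25, edgeR adjusted p = 0.33) and by 0.31 without the deeper libraries, and *Pax2*, *Esrrb* and *Esrrg* by 0.03, 0.09 and 0.16.

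Both control groups carried floxed alleles and Pax8rtTA without the recombinase, and the floxed gene, the litters and any difference in handling cannot be told apart. Of the *Myc* controls 2 were deeper libraries, and of the *Cxcl12* controls 0. Other genes differed between them too. *Pdzk1*, a scaffold of proximal tubule transporters, was higher in *Cxcl12* controls (0.51, edgeR adjusted p = 0.035), as was *Cldn10* (0.69, edgeR adjusted p = 0.037), a tight junction protein of the loop of Henle. The neutrophil genes *S100a8* (-2.52, edgeR adjusted p = 0.025) and *S100a9* (-2.41, edgeR adjusted p = 0.031) and the myeloid integrin *Itgam* (-1.35, edgeR adjusted p = 0.025) were lower. With a term for the deeper libraries in the fit, edgeR called no gene of any list, and 45 in place of 202 among all genes. As no *Cxcl12* control is a deeper library, this term rests on the *Myc* controls alone. With the deeper libraries left out instead, edgeR called 272 of 15042 genes. Leukocyte sums were 72.8 to 75.1 CPM in *Cxcl12* and 104 to 274 CPM in *Myc* controls. Proximal tubule genes were higher for 28 of 32, with sums of 20871 to 26052 against 15490 to 24696 CPM. Of the regulators and targets, 11 of 12 further regulators, 27 of 32 PPARA targets and 12 of 14 ERR targets were higher in *Cxcl12* controls, with *Maf* (0.60, edgeR adjusted p = 0.075) and *Fabp1* (2.18, edgeR adjusted p = 0.086) among the smallest p-values. The part of these cell markers in the higher *Hnf4a* and *Ppara* was not tested.

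Within the groups, some members varied together from kidney to kidney. Pearson correlations of log2 CPM were taken over the 18 kidneys after each group mean had been removed, and all points share the library sizes and the TMM scaling, so they are given as a description. *Hnf4a* and *Ppara* had r = 0.81 over 18 kidneys and 0.95 over the 12 that are not deeper libraries. *Pax8* and *Pax2* had r = 0.61, and both ran against *Esrrg*, at -0.62 each. Without the deeper libraries these 3 values were smaller in size, at 0.29, -0.22 and -0.29. *Hnf4a* and *Emx1* had r = 0.52 over 18 and 0.03 over 12 kidneys, whereas *Hnf4a* and *Lhx1* had 0.50 and 0.53.

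**Figure D4:**
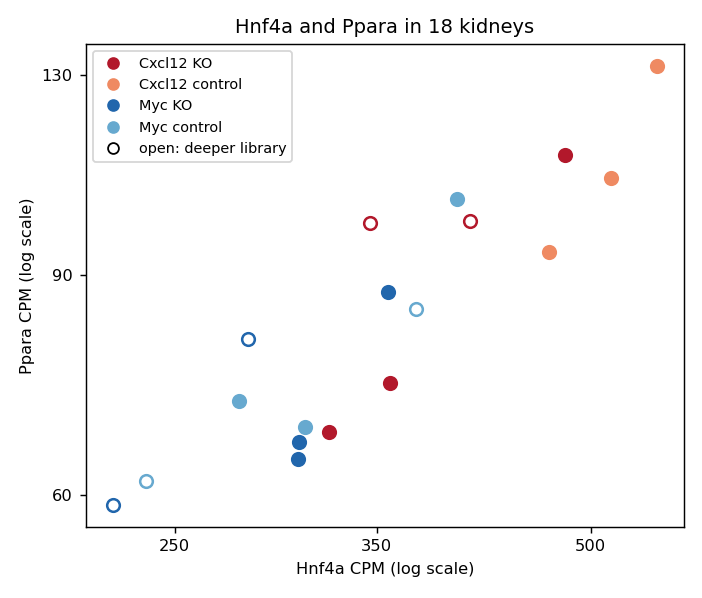
CPM of *Ppara* against CPM of *Hnf4a* in the 18 kidneys on logarithmic axes, coloured by group, with open circles for the deeper libraries. Kidneys with more *Hnf4a* had more *Ppara* (r = 0.81 after removing the group means), from *Myc* KO kidney 5 with 225 and 59.0 CPM to *Cxcl12* control kidney 3 with 559 and 132 CPM.

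Against the mean levels of the marker lists, taken the same way, *Emx1* went with proximal tubule genes (r = 0.75 over 18 kidneys, 0.51 over the 12) and *Hnf4a* did so at 0.55 and 0.31. *Hnf4a* ran against distal convoluted and connecting tubule markers (-0.76 and -0.80) and collecting duct markers (-0.73 and -0.81). It also ran against markers from outside the tubule, podocyte (-0.69 and -0.71), stromal (-0.62 and -0.51) and endothelial (-0.59 and -0.48). *Pax8* ran against loop of Henle markers at -0.76 in both sets of kidneys, and *Lhx1* against tubular injury markers at -0.70 and -0.74. Against *Pax8* there were also collecting duct markers (-0.65 and -0.59) and podocyte markers (-0.52 and -0.72). *Esrrg* went with loop of Henle markers at 0.49 and 0.42, *Esrrb* at 0.46 and 0.37. What lies behind these values was not tested.

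**Figure D5:**
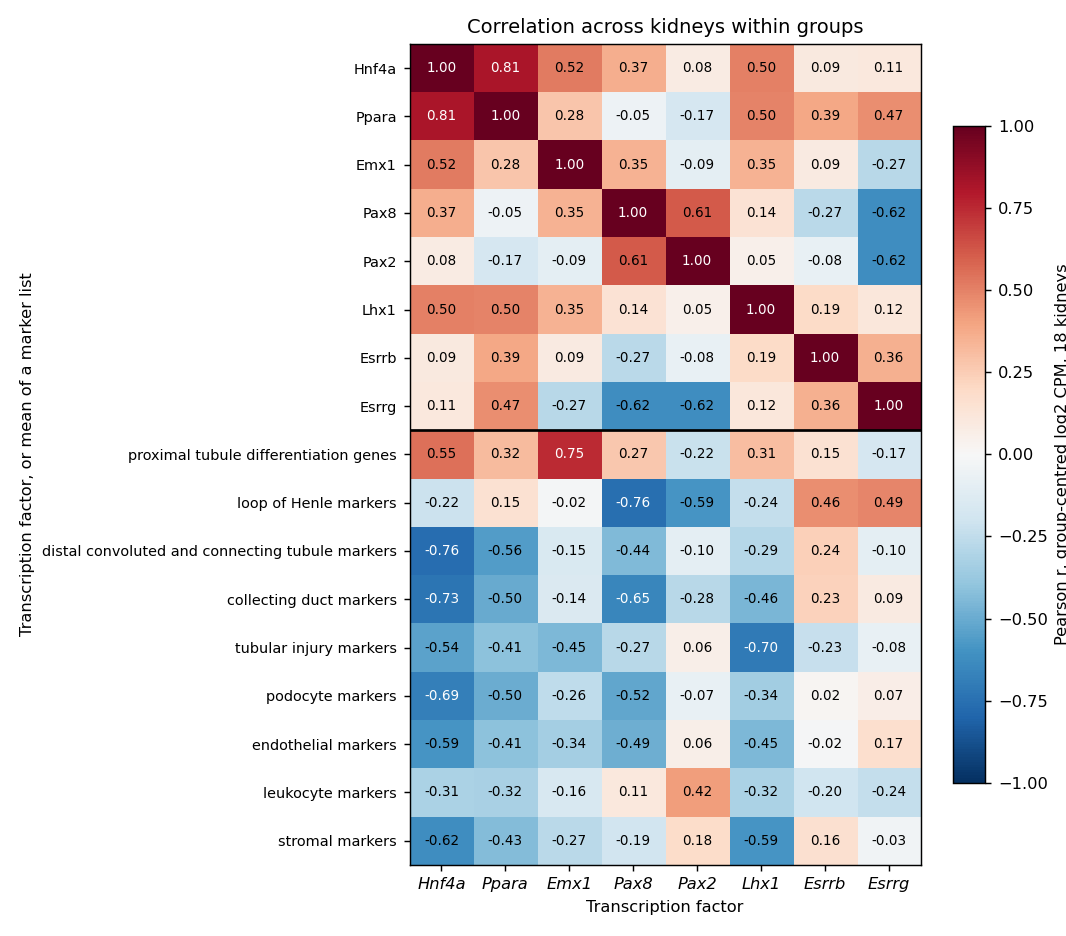
Pearson correlations over 18 kidneys, after removing group means, between the log2 CPM of the 8 transcription factors (upper block) and between each factor and the mean of a marker list (lower block). The strongest within the upper block are *Hnf4a* with *Ppara* (0.81) and *Esrrg* with *Pax8* and *Pax2* (-0.62 each), and in the lower block *Hnf4a* with distal convoluted and connecting tubule markers (-0.76), *Pax8* with loop of Henle markers (-0.76) and *Emx1* with proximal tubule genes (0.75).

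The genes whose pattern was most like each member were read by the same measure over 15903 genes and 18 kidneys. Of the 3 nearest to each, those of *Hnf4a* included *Nr1h3* (r = 0.92) and *Dgkq* (0.91), and those of *Ppara* included *Pafah2* (0.91) and *Glb1l2* (0.88). For *Emx1* they were *Cyhr1* (0.88), *Marc2* (0.88) and *Fam173a* (0.88). *Pax8* was nearest to *Gas2l1* (0.89), *Ercc3* (0.87) and *Smyd2* (0.85), *Pax2* to *Entpd7* (0.87), *Mllt1* (0.84) and *Zfp579* (0.84), and *Lhx1* to *Dpyd* (0.85), *Ctps2* (0.80) and *Rreb1* (0.79). *Esrrb* was nearest to *Tmem72* (0.85), *Efl1* (0.82) and *Plxdc2* (0.81), and *Esrrg* to *Krcc1* (0.92), 2010315B03Rik (0.92) and *Selenot* (0.90). Without the deeper libraries 1 of the 24 nearest genes, *Fam173a*, was still among the nearest 3 of its member.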

How the data were processed

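RNA of 18 kidneys in 4 groups was sequenced. The authors trimmed reads with Trimmomatic 0.32, aligned them to GRCm38 with STAR 2.4.0 (versions per the submitters' processing notes) and deposited raw counts per gene, not normalized and with replicates kept apart. The annotation used for counting is not given in the sources used here. The column that ignores strand was used. Between 29.4% and 32.6% of reads per kidney named no gene and stayed out of the library sizes. Gene models came from GENCODE vM21, which matched 45143 of 45706 genes, and start regions from RefSeq on GRCm38.p6.

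For each cohort, low counts were removed by filterByExpr, TMM factors were computed, and KO kidneys were set against controls in the quasi-likelihood test of edgeR (version 4.0.16, R 4.3.3) with Benjamini-Hochberg adjustment over all genes tested. A standard error is the log2 fold change divided by the square root of F. The difference between cohorts was a contrast over all 18 kidneys. Members were also compared by exact permutation of log2 CPM (prior count 2), two-sided, over 56 relabellings for *Cxcl12* and 252 for *Myc*. In all 33 pairs of kidneys of 1 group, counts differed by more than sampling noise.

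The members, the lists and the tests were chosen with earlier results of these data known. The text names the members, the knocked-out genes, listed genes with an adjusted p under 0.05, otherwise the 2 genes with the smallest p in each list of regulators or targets, and the 3 genes most like each member. A few genes that this rule selects are not reported here. Alternatives were RLE factors or no scaling, no filter, DESeq2 1.42.0, limma-voom (limma 3.58.1), each strand column, the deeper libraries as a term, left out or alone, replicate number as a block, and leaving out single kidneys. The fits were tested on simulated data. Tables and figures used Python 3.11.15, numpy 2.4.6, pandas 2.3.3 and matplotlib 3.10.9.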

Additional observations from a re-analysis of the deposited data

How the results depend on the processing

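Of 382 values of the members and the knocked-out genes under other settings, 358 kept their direction and their side of the threshold, 16 reversed, 7 passed it newly and 1, *Myc* itself among the deeper libraries alone, no longer passed. Over 424 values that each leave out 1 kidney, 408 were kept, 13 reversed and 3 passed newly. The cause was not tested for any of them.

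The count of members called in the *Cxcl12* cohort was 0, and 1 with every gene with a count and with DESeq2, *Emx1* in both, while leaving out single kidneys gave 0 to 0. In the *Myc* cohort and in the difference no setting called a member. Between the controls it was 0, and 1 with every gene and with DESeq2, and 0 to 2 when single kidneys were left out. The exact permutation with CPM per library size gave 2 members in place of 1 for *Cxcl12*, 1 in place of 0 for *Myc* and 2 in place of 1 for the controls at p under 0.05. These were *Emx1* and *Hnf4a* for *Cxcl12*, *Pax2* for *Myc*, and *Hnf4a* and *Lhx1* for the controls. The share of all genes was not computed for this test, so these counts have no background to be set against.

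Among all genes, calls in the *Cxcl12* cohort were 0, and 17 with no scaling, 214 with every gene, 353 with DESeq2, 9 with the first-strand column, 123 with a term for the deeper libraries and 80 without them (0 to 15 without single kidneys). In the *Myc* cohort they were 246, and 391 with no scaling, 1131 with DESeq2, 954 with the term, 8 without the deeper libraries and 0 with those alone (21 without *Myc* KO kidney 2 to 877 without *Myc* control kidney 3). For the difference they were 11, and 5 with no scaling, 324 with DESeq2, 3 with limma-voom, 4 and 7 with the first- and second-strand columns, 133 with the term and 44 without the deeper libraries (1 to 75). For the controls they were 202, and 467 with every gene, 852 with DESeq2, 45 with the term and 272 without the deeper libraries. Leaving out single kidneys gave 23 without *Cxcl12* control kidney 2 to 523 without *Myc* control kidney 4.

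Called genes among the lists were 0 for *Cxcl12*, and 2 with no scaling, 15 with every gene, 18 with DESeq2, 1 with the first-strand column, 12 with the term and 6 without the deeper libraries (0 to 1). For *Myc* they were 0, and 4 with no scaling, 2 with every gene, 19 with DESeq2, 1 with the second-strand column and 6 with the term (0 to 12). For the difference they were 0, and 1 with every gene, 5 with DESeq2, 1 with the second-strand column, 4 with the term and 1 without the deeper libraries (0 to 2). For the controls they were 5, and 18 with every gene, 26 with DESeq2, 3 with limma-voom and 0 with the term (0 to 16).

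Small effects turned sign. In the *Cxcl12* cohort *Pax2* had 0.013 with the term and 0.0063 without the deeper libraries. In the *Myc* cohort *Pax8* had 0.012 with the second-strand column, *Esrrb* 0.043 without the deeper libraries, and *Esrrg* -0.0046 with no scaling, -0.044 without the deeper libraries and -0.068 to 0.12 without single kidneys. Among the deeper libraries alone *Cxcl12* had -0.031 in the *Myc* cohort. In the difference *Pax2* ran from -0.13 to 0.018 without single kidneys, and *Esrrb* had 0.020 with no scaling, 0.015 with limma-voom, 0.15 with the first-strand column, 0.083 with the term, 0.35 without the deeper libraries and -0.12 to 0.22 without single kidneys. Between the controls *Esrrb* had -0.027 with the second-strand column and -0.014 to 0.25 without single kidneys, and *Pax2* -0.0091 to 0.087. Of the 24 genes nearest to a member, 1 was so without the deeper libraries.

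Whether replicate numbers pair the kidneys cannot be settled from so few pairs. KO and control kidneys with different numbers correlated at -0.02 on average in the *Cxcl12* cohort and at -0.01 in the *Myc* cohort. Same-numbered KO and control kidneys correlated at 0.07 on average in the *Cxcl12* cohort (3 pairs) and 0.05 in the *Myc* cohort (5 pairs), and the closest KO kidney had a control's own number for 2 of 3 and 0 of 5 controls. With a replicate block, *Emx1* had -0.82 (edgeR adjusted p = 0.18) and *Esrrg* 0.046 in the *Cxcl12* cohort, *Pax2* 0.10 and *Esrrg* -0.0086 in the difference, and 18 genes of the *Myc* cohort and 1 of the difference were called.

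The comparison of the controls and the CPM per library size were chosen after seeing the data. With 3 *Cxcl12* controls, leaving 1 out gave *Emx1* adjusted p-values of up to 0.27.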
